A study of Mus musculus with 4 samples.

Results

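The proteasome genes described here were those whose symbol on the array starts with Psma, Psmb, Psmc, Psmd, Psme or Psmf followed by a digit, without the immunoproteasome genes Psmb8, Psmb9 and Psmb10. The array's annotation named 44 such genes, and 42 of them, of 18193 genes in all, had a probe set, the set of short probes by which an Affymetrix array reads a transcript, that names that gene alone. Where a gene had several probe sets, the one with the highest mean over the 4 arrays was used, so no difference between the groups entered the choice. Psme2 and Psme2b shared a probe set and are given apart. The pattern also took in Psmc3ip, a meiotic recombination factor named for binding Psmc3, and Psme3ip1, which binds Psme3; neither is a subunit of the proteasome.

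Total RNA was taken from splenic naive T cells of KO mice (2 arrays, KO1 and KO2) and of wild-type (WT) mice (2 arrays, WT1 and WT2) after 3 days under conditions that induce regulatory T cells (Treg), so the spleen, the starting cell and the culture were common to both groups. The deleted gene, the cells in which it is deleted, the strain and the age are not given in the sources used here, so the deletion itself could not be checked. Each array carries the number of a mouse source, but nothing says that the cultures were separate, so p-values measure only the spread between these arrays, which may be technical. The values are Affymetrix MAS5 signals scaled to a common mean on every array, and a difference in total RNA per cell is therefore removed. In bulk RNA of this kind, fewer cells of a type and less RNA per cell cannot be told apart.

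The proteasome is the protease that degrades proteins tagged with ubiquitin. Its core particle is a barrel of stacked rings, with outer rings of alpha subunits (Psma genes) that gate the entrance and inner rings of beta subunits (Psmb genes) that hold the catalytic sites. The regulatory particle caps the barrel: its base holds a ring of ATPases (Psmc genes) that unfold the substrate and pull it in, and its lid removes the ubiquitin chain. In activated T cells the proteasome degrades, among others, the inhibitors of NF-kB, and lymphocytes also carry immunoproteasome subunits that replace the catalytic beta subunits. When proteasome activity is low, the transcription factor Nfe2l1 (Nrf1) is known to raise the genes of the subunits together, through antioxidant response elements in their promoters.

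RefSeq promoter sequences (build GRCm38.p6, 250 bases before to 50 after the gene's start) were matched for 35 of the 42 genes, in 38 windows, and searched on both strands for 3 short motifs. The antioxidant response element core TGACNNNGC was in 15.8% of these windows and in 12.4% of the 32851 promoters of the table. It was found at Psmb5, Psmb6, Psmc6, Psmd12, Psmd9 and Psme4. CCGGAAG, the core of sites for ETS-family factors, was in 39.5% of the windows and in 8.86% of all promoters. It was found at 9 of the 14 matched genes of the regulatory particle (Psmc1, Psmc2, Psmc6, Psmd2, Psmd4, Psmd6, Psmd11, Psmd12 and Psmd13) and at 1 of the 11 of the core particle (Psma6). CCAAT was in 39.5% of the windows and 37.4% of all promoters. A match is a run of letters, not a binding site. The sequences below show the 2 rarer motifs in genes of the catalytic ring, the base, the lid and a base chaperone; capitals mark the motif, and CTTCCGG is CCGGAAG read on the other strand.
Psmb5, TGACNNNGC (chr14:54618009-54618067, minus strand): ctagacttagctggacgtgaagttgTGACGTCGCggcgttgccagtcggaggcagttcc
Psmd9, TGACNNNGC (chr5:123228134-123228189, plus strand): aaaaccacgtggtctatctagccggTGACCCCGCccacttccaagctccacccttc
Psmc1, CCGGAAG (chr12:100110149-100110201, plus strand): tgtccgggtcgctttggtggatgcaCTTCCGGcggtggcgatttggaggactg
Psmc6, CCGGAAG (chr14:45329699-45329755, plus strand): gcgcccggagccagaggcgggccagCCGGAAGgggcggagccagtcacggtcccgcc
Psmd6, CCGGAAG (chr14:14120959-14121015, minus strand): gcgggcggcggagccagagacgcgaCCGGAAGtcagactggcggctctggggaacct
Psmd12, CCGGAAG (chr11:107479486-107479527, plus strand): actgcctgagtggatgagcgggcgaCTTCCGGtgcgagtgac

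The groups differed widely outside the proteasome. Arrays of a group correlated at 0.977 (KO) and 0.979 (WT) across probe sets, against 0.933 to 0.941 between groups; probe sets are not independent replicates. Of 27023 probe sets tested with limma, 17.1% were called, that is, passed a Benjamini-Hochberg adjusted p of 0.05, with 2131 higher and 2477 lower in KO arrays. Markers of T cells were present on all arrays, and 4 of the 5 tested rose in KO arrays. Cd4 went the other way and did not pass (log2 fold change -0.33, KO arrays below both WT arrays). The Treg factor Foxp3 fell, with a signal of 947 and 1101 on the KO arrays and 2177 and 2033 on the WT arrays. Markers of other cells moved with the genotype: 5 of 6 mast cell and basophil markers rose, with a signal summed over the measured markers of the list of 8321 to 12939 on KO arrays and 699.7 to 929.7 on WT arrays. The eosinophil markers (2 of 2 tested; sums over 3 measured, 2046 to 5444 in KO and 18.1 to 73.6 in WT), the neutrophil markers (2 of 2 tested; sums over 3 measured, 877 to 1906 and 57.3 to 76.4) and the CD8 T cell genes (2 of 2, sums 2196 to 2653 and 881 to 924) rose too, as did 2 of 4 tested macrophage markers (sums over 5 measured, 748 to 772 and 385 to 397). The other tested macrophage markers went the other way and did not pass: Fcgr1 (log2 fold change -0.58, KO arrays below both WT arrays) and Csf1r (-0.11, groups overlapping). None of 3 B cell and 2 dendritic cell markers passed, and the NK cell and erythroid markers were too dim to be tested. The part of these cells in the proteasome values was not tested.

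No proteasome gene passed the test in either direction. Of the 42 genes, 40 were bright enough to be tested, and limma's adjusted p called 0 higher and 0 lower in KO arrays. Over all features, 20.3% of the 12547 genes tested were called (10.5% higher, 9.87% lower; 1 probe set per gene). At an unadjusted p of 0.05, 4 of the 40 passed (Psma4, Psmb2, Psmd1 and Psmb1), against 34.5% of all genes. This count was 8 without KO2, 0 without WT2 and 0 without the intensity trend of the fit. Fold changes are given as log2 KO over WT on the scale of log2(signal + 16), with a standard error from limma. They ran from -0.31 (Psmc3ip) to 0.31 (Psmb2) with a median of 0.03, beside -0.03 for all genes tested. The typical size without sign, the median of the absolute log2 fold change, was 0.12 for the proteasome genes and 0.31 for all genes. It was 0.06 to 0.14 in the lists of genes that work with the proteasome, given below, so the small size is not particular to the proteasome genes. Between the 2 KO arrays alone, the proteasome genes differed by a median of 0.11. The standard errors, 0.08 to 0.23, had a median of 0.10, against 0.18 for all genes. The tested proteasome genes were bright, with no signal below 354, where the array medians were 56.5 to 62.6. The comparisons with all genes, here and below, were not matched for brightness.

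All 40 of the 95% intervals lay within a 2-fold change in either direction, and 31 lay within 0.5 on the log2 scale. None of the 40 estimates reached 0.5 in size, which 30.8% of all genes did. Leaving out an array took Psmc3ip to -0.60 (without KO1) and Psmf1 to 0.57 (without WT1), and averaging probe sets took Psmd2 to -0.52. The Psmd2 average takes in a probe set too dim to be tested, with signals of 10.5 to 56.4, while the bright one stood at -0.06. With the probe set ranked second, Psma3, Psmd9 and Psmd7 passed 0.5 in size. These second probe sets are dim, with signals of 87.1 to 225 (Psma3), 33.3 to 78.8 (Psmd9) and 14.6 to 224 (Psmd7). The KO arrays lay above both WT arrays for 16 genes and below both for 6, and the groups overlapped for 18; over all genes 29.8% lay above and 32.9% below. With 2 arrays against 2, a two-sided exact permutation test of a single gene cannot go below 0.333, so limma's pooled spread carries the test.

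**Figure D1:**
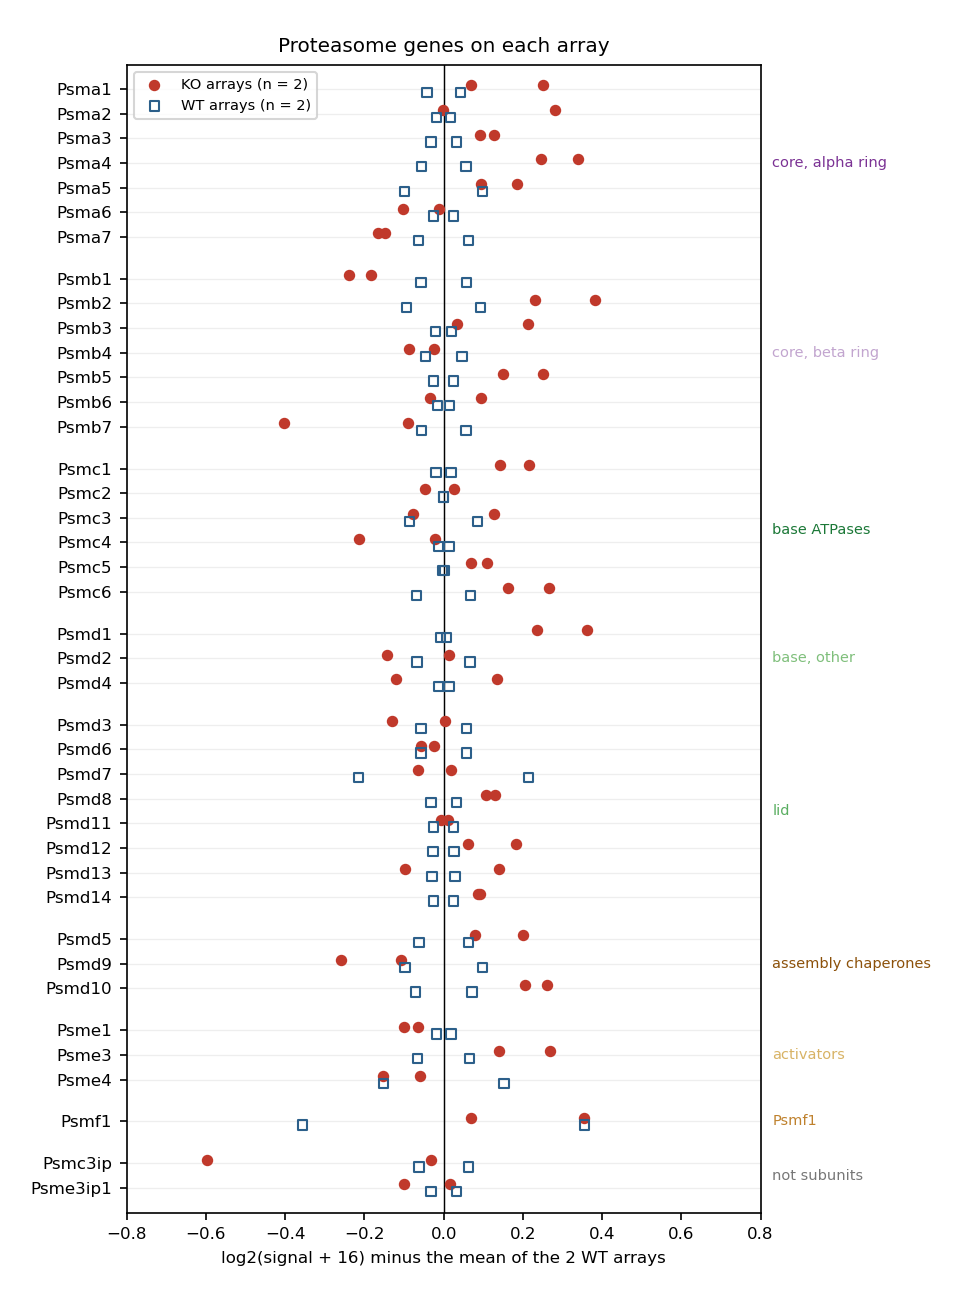
Level of each of the 40 tested proteasome genes on each array, as log2(signal + 16) minus the mean of the 2 WT arrays (x axis), with KO arrays as filled circles and WT arrays as open squares, grouped by role. The KO arrays lie above both WT arrays for 16 genes and below both for 6, and the groups overlap for 18.

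**Figure D2:**
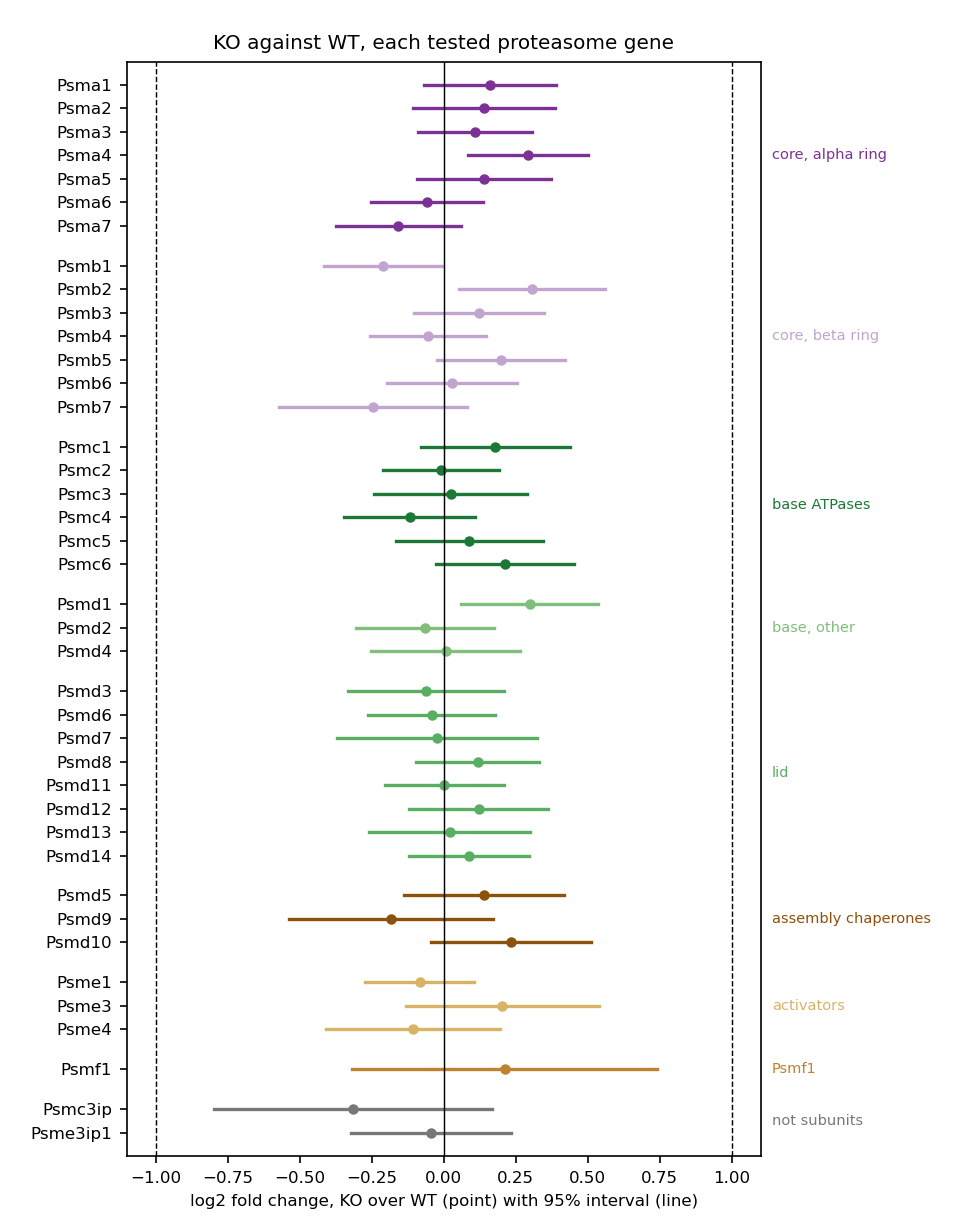
Log2 fold change, KO over WT, of the 40 tested proteasome genes (points) with 95% intervals from limma (lines), grouped by role; dashed lines mark a 2-fold change. All intervals lie between -0.80 and 0.74, inside the dashed lines.

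The alpha subunits, which form the outer rings and the gate, had a median log2 fold change of 0.14, from -0.16 to 0.29 (7 of 7 tested, 0 called). Psma4 was the highest, with a signal of 12535 and 11745 on the KO arrays, against 10298 and 9525 on the WT arrays. Both KO arrays stood above both WT arrays, and the log2 fold change of 0.29 ± 0.09 (SE, n = 2 arrays each) had the smallest adjusted p of all proteasome genes, 0.0612 by limma. Psma7 was the lowest, with 6239 and 6319.9 on the KO arrays, against 7316 and 6705 on the WT arrays. The KO arrays lay below both WT arrays, by -0.16 ± 0.09 (SE; adjusted p 0.299). Of the other alpha genes, Psma1 (0.16) and Psma3 (0.11) had both KO arrays above, while the groups overlapped for Psma2 (0.14), Psma5 (0.14) and Psma6 (-0.06). For Psma2, KO1 alone stood apart, at 15238, with KO2 at 12522 among the WT values of 12699 and 12390.4.

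The beta subunits had a median of 0.03, from -0.25 to 0.31 (7 of 7 tested, 0 called). Psmb5, Psmb6 and Psmb7 carry the catalytic sites, with chymotrypsin-like, caspase-like and trypsin-like activity in that order. Psmb5 had 5413 and 5043 on the KO arrays, against 4629 and 4467 on the WT arrays (log2 fold change 0.20 ± 0.10, SE; adjusted p 0.202). Psmb6 had 4999.9 and 4571 on the KO arrays, against 4734 and 4638 on the WT arrays (0.03 ± 0.10; adjusted p 0.878). Psmb7 had 1437 and 1153 on the KO arrays, against 1470.2 and 1591 on the WT arrays (-0.25 ± 0.14; adjusted p 0.284). Each catalytic gene thus stood differently: KO above WT for Psmb5, overlapping for Psmb6, and KO below WT for Psmb7, none past the test.

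Among the beta subunits without a catalytic site, Psmb2 had the highest fold change of all proteasome genes. Its signal was 5359 and 4823 on the KO arrays and 4385 and 3852 on the WT arrays (log2 fold change 0.31 ± 0.11, SE; 95% interval 0.05 to 0.56; adjusted p 0.0976). Psmb1 lay on the other side of 0, with 10354 and 9970.1 on the KO arrays and 11306 and 12239.6 on the WT arrays (-0.21 ± 0.09; 95% interval -0.42 to -0.01; adjusted p 0.147). The groups did not overlap for either gene. Psmb3 stood at 0.12 with the KO arrays above, and Psmb4 at -0.06 with the groups overlapping.

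The ATPases of the base, which unfold substrates, had a median of 0.06 (6 of 6 tested, 0 called). Psmc6 was the highest ATPase, with 4468 and 4154 on the KO arrays and 3541 and 3891 on the WT arrays (log2 fold change 0.21 ± 0.10, SE; adjusted p 0.205). Psmc4 was the lowest in the base, with 6509 and 7427 on the KO arrays and 7616 and 7477 on the WT arrays (-0.12 ± 0.10; adjusted p 0.467). KO1 and KO2 of Psmc4 differed more from each other than KO2 did from the WT arrays. Psmc1 (0.18) and Psmc5 (0.09) had both KO arrays above, and Psmc2 (-0.01) and Psmc3 (0.03) overlapped.

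In the base outside the ATPase ring, Psmd1 and Psmd2 are the large scaffold subunits and Psmd4 is a receptor for ubiquitin chains. Psmd1 was the highest of the regulatory particle, with 3807 and 3483 on the KO arrays and 2942 and 2971 on the WT arrays. The KO arrays lay well above the WT arrays, which were close to each other (log2 fold change 0.30 ± 0.10, SE; adjusted p 0.0864). Its partner Psmd2 had 5361 and 4805 on the KO arrays and 5562 and 5068 on the WT arrays (-0.06 ± 0.11), so the scaffold genes did not stand alike, though the difference between them was not tested. Psmd4 stood at 0.01 with the groups overlapping.

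On the probe sets used, the lid had the narrowest range, from -0.06 to 0.12 with a median of 0.01 (8 of 8 tested, 0 called). Its enzyme is Psmd14, the deubiquitinase that cuts the chain off the substrate, at 6155 and 6178 on the KO arrays and 5695 and 5902 on the WT arrays (log2 fold change 0.09 ± 0.09, SE). The highest lid gene was Psmd12, a scaffold subunit, with 3029.8 and 3292 on the KO arrays and 2848 and 2955 on the WT arrays (0.12 ± 0.11). The lowest was Psmd3, with 1918 and 1747 on the KO arrays and 1990.0 and 1838 on the WT arrays (-0.06 ± 0.12). Psmd8 (0.12) also had both KO arrays above WT, and Psmd6, Psmd7, Psmd11 and Psmd13 lay between -0.04 and 0.02 with the groups overlapping. The adjusted p of the lid genes on these probe sets ran from 0.436 upwards. The Psmd11 probe set used is of a kind marked as possibly reading several transcripts. The other tested Psmd11 probe sets, described below, stood from -0.54 to -0.12, each with the KO arrays below both WT arrays. With that kind of probe set left out, Psmd11 stood at -0.32, so the narrow range depends on this choice.

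**Figure D3:**
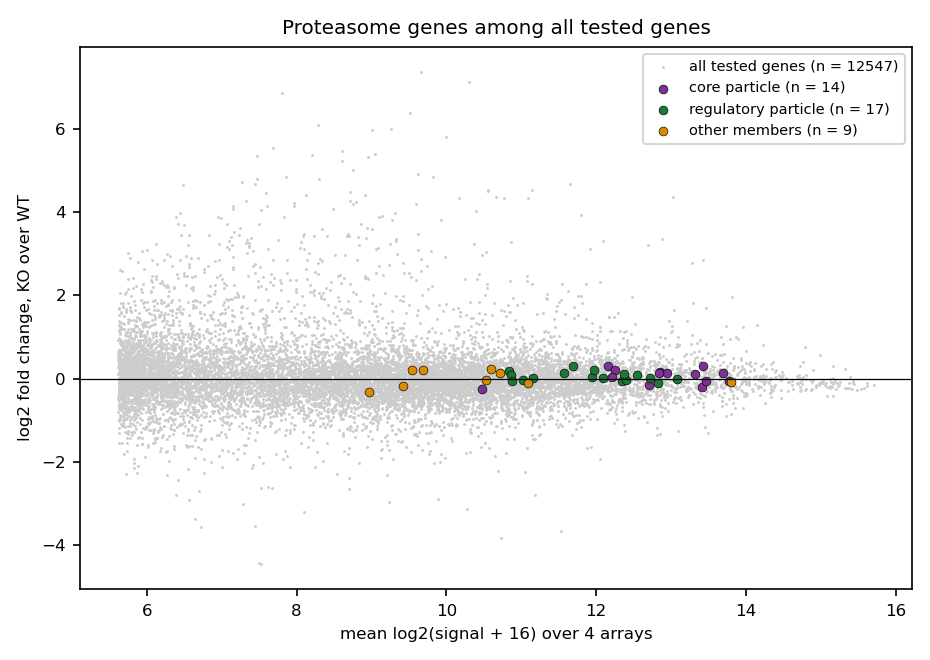
Log2 fold change, KO over WT (y axis), against the mean of log2(signal + 16) over the 4 arrays (x axis) for the 12547 genes tested (grey), with the 14 core, 17 regulatory and 9 other proteasome genes coloured. The proteasome genes lie between -0.31 and 0.31, a narrow band around 0.

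The core particle (Psma1 to Psma7 and Psmb1 to Psmb7) and the regulatory particle (17 genes of base and lid) were then set side by side. The core had a median log2 fold change of 0.12 and a mean of 0.06, with KO above WT for 6 of 14 genes and below for 3. The regulatory particle had a median of 0.02 and a mean of 0.05, with KO above for 7 of 17 and below for 1. Over all genes tested, KO lay above WT for 29.8% and below for 32.9%. The medians differed by 0.10 and the means by 0.0053, so the difference was not seen with means. Counted per array against the WT mean, the median of the core minus that of the regulatory particle was 0.0059 on KO1 and -0.0019 on KO2, against 0.02 on WT1 and -0.02 on WT2. The KO arrays thus lay between the WT arrays. Without KO1 the difference of the medians was -0.0019, and with the probe set ranked second it was -0.11. In that setting a gene with a single probe set kept it, and 23 of the 42 genes had more than 1. Some second probe sets of the core are dim, with signals of 81.9 to 171 (Psma1), 87.1 to 225 (Psma3) and 120 to 212 (Psmb1). The difference is given as a description and was not tested.

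Genes with the CCGGAAG motif in the regulatory particle had log2 fold changes from -0.06 to 0.21 with a median of 0.0067, and those without it from -0.12 to 0.30 with a median of 0.09. The ranges overlapped over most of their length, and the motif count is a description of the promoters only. Of the genes with the antioxidant response element core, Psmb5 and Psmc6 stood at 0.20 and 0.21, and Psmd12 at 0.12. Psmb6 stood at 0.03, Psme4 at -0.11 and Psmd9 at -0.18. In the core particle the median was 0.11 with this motif (2 genes) and 0.12 without it (9 genes). In the regulatory particle it was 0.17 with it (2 genes) and 0.01 without it (12 genes, from -0.12 to 0.30). A link between motif and fold change was not tested.

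The base is put together by chaperones that leave before the proteasome is complete. Psmd10 (gankyrin) had 1635 and 1699 on the KO arrays and 1487 and 1346 on the WT arrays (log2 fold change 0.23 ± 0.12, SE; adjusted p 0.231). Psmd5 had 1831 and 1681 on the KO arrays and 1661 and 1523 on the WT arrays (0.14 ± 0.12). Psmd9 had 659.6 and 592 on the KO arrays and 762 and 664 on the WT arrays (-0.18 ± 0.16). The groups did not overlap for these genes, and KO was above WT for Psmd10 and Psmd5 and below for Psmd9, none past the test.

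Activators open the core without ubiquitin. Psme1, a subunit of the interferon-induced activator, had 13949.6 and 13611 on the KO arrays and 14781 and 14411 on the WT arrays (log2 fold change -0.08 ± 0.08, SE). The probe set shared by Psme2, its partner, and Psme2b had 11403 and 11438 on the KO arrays and 10831 and 10412 on the WT arrays (0.10 ± 0.08; adjusted p 0.445), and the genes cannot be told apart there. Psme3, the nuclear activator, had 817 and 747 on the KO arrays and 708 and 645 on the WT arrays (0.20 ± 0.15). The KO arrays of Psme1 thus lay below both WT arrays, while those of its partner's probe set and of Psme3 lay above, none past the test.

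Psme4, the large activator known from DNA repair and sperm development, had 2009.6 and 2146 on the KO arrays and 2012 and 2489 on the WT arrays (-0.11 ± 0.13, SE). Psmf1, the inhibitor of the core, had 961 and 786 on the KO arrays and 963 and 581 on the WT arrays, the widest standard error of the set (0.21 ± 0.23). The WT arrays of Psmf1 spanned a wider range than the KO arrays. Its other tested probe sets lay on the other side of 0, at -0.24, -0.12 and -0.13, none called. Psmc3ip had 531 and 354 on the KO arrays and 568 and 519.9 on the WT arrays (-0.31 ± 0.21), while its other probe set stood at 0.03. Psme3ip1 had 1496 and 1378 on the KO arrays and 1513 and 1447 on the WT arrays (-0.04 ± 0.12).

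The genes left untested for low signal are restricted to other tissues. Psma8, the alpha subunit of the testis, had 26.3 and 28.5 on the KO arrays and 15.9 and 17.5 on the WT arrays. Psmb11, the beta subunit of the thymic cortex, had 69.9 and 12.1 on the KO arrays and 11.4 and 46.7 on the WT arrays. Both lie near the floor of these arrays, and no difference was read from them.

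Of the 79 probe sets of proteasome genes tested, 2 were called, both lower in KO arrays and 0 higher, where 9.17% of all probe sets were called lower and 7.89% higher. The probe sets are a less bright one of Psmd11 and a dim one of Psmd7, whose KO signals lie near the floor, so that its call is not read as a difference. They were singled out after their values were seen. The Psmd11 probe set had 1133 and 1039 on the KO arrays and 1617 and 1546 on the WT arrays (log2 fold change -0.54 ± 0.12, SE; limma adjusted p 0.0211). The brightest Psmd11 probe set, used above, had 6737 and 6659 on the KO arrays and 6807 and 6571 on the WT arrays (0.00 ± 0.09), so the probe sets of this gene disagree. The remaining tested probe sets of Psmd11 stood at -0.32 ± 0.11 (adjusted p 0.0785), -0.32 and -0.12, none called. The Psmd11 call was lost without WT1 (0.105), without WT2 (0.0732), without KO2 (0.0624) and without an intensity trend (0.118).

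The dim probe set of Psmd7 had 44.5 and 14.6 on the KO arrays and 83.1 and 224 on the WT arrays, and no fold is given for it. It missed the threshold without WT2 (adjusted p 0.278), without KO2 (0.113), with no filter (0.11) and with no intensity trend (0.141), while the bright Psmd7 probe set stood at -0.02 ± 0.15. Which part of the transcript each probe set reads was not analysed here.

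**Figure D4:**
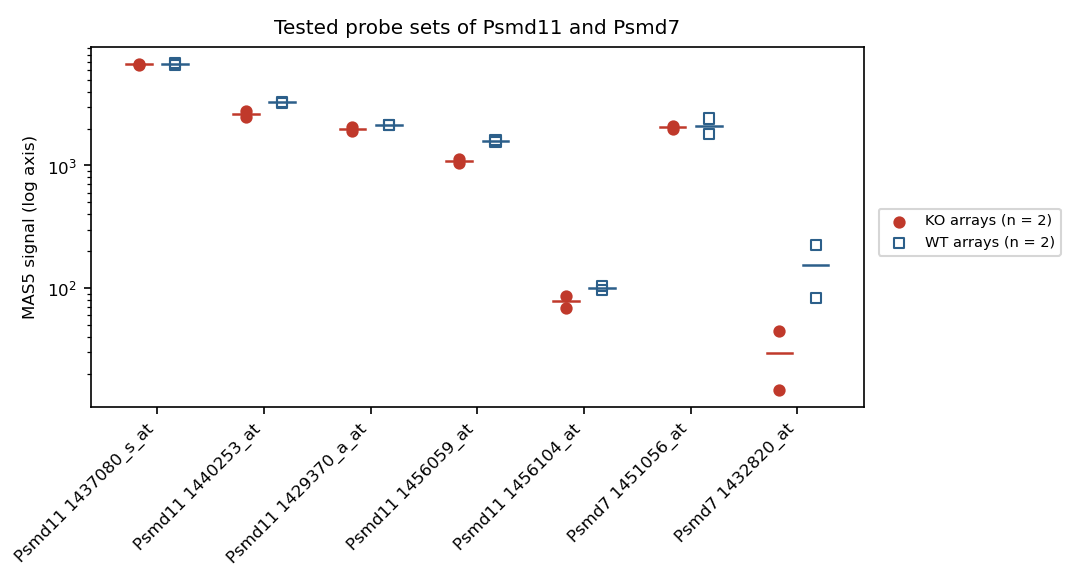
MAS5 signal (log axis) on each KO array (circles) and WT array (squares) for the 5 tested probe sets of Psmd11 and 2 of Psmd7, with group means as short lines. The groups overlap on the brightest probe set of each gene and do not overlap on the called one of Psmd11; the dim one of Psmd7 has KO signals near the floor, and levels of different probe sets are not comparable.

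Genes that work with the proteasome were examined from lists drawn up for this comparison. Over all 12547 genes tested, 20.3% were called (10.5% higher, 9.87% lower). The counts of called genes below are to be set beside that share and are not read as a result about the lists. None of the 3 immunoproteasome genes was called. Psmb8 had 17778 and 16214 on the KO arrays and 17269.5 and 16188 on the WT arrays (log2 fold change 0.02, limma adjusted p 0.899). Psmb9 had 12495 and 11740.5 on the KO arrays and 10668 and 11189 on the WT arrays (0.15, adjusted p 0.291). Psmb10 had 4169 and 4031 on the KO arrays and 4669 and 4278 on the WT arrays (-0.12, adjusted p 0.445). These subunits take the place of Psmb6 (Psmb9), Psmb7 (Psmb10) and Psmb5 (Psmb8) in the core. The groups overlapped for Psmb8, KO was above WT for Psmb9 and below for Psmb10.

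Of 5 assembly factors of the core that were tested, 1 was called. Psmg1, which pairs with Psmg2 to start the alpha ring, fell to 1684 and 1948 on the KO arrays, against 2735 and 2475 on the WT arrays (log2 fold change -0.52 ± 0.12, SE; limma adjusted p 0.0235). Psmg2 stood at -0.08 with the groups overlapping. Pomp, which assists the beta ring, had 8618 and 7959 on the KO arrays and 6993 and 5677 on the WT arrays (0.39 ± 0.12; adjusted p 0.0541), and it passed in 6 of the alternative settings with values from 0.0202 to 0.0486. The Psmg1 call was lost without WT1 (adjusted p 0.129), WT2 (0.0504) or KO1 (0.0727).

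Of 10 genes of ubiquitin shuttling and processing, 2 fell. Ubqln2, a shuttle that carries ubiquitin chains to the proteasome, had 2236 and 1971 on the KO arrays and 3150.1 and 3205 on the WT arrays (log2 fold change -0.59 ± 0.11, SE; limma adjusted p 0.00896). Its relative Ubqln1 had 6411 and 6459.9 on the KO arrays and 8405 and 8609 on the WT arrays (-0.40 ± 0.09; adjusted p 0.0171). The groups were clearly apart for both, but another probe set of each gene was not called and gave a smaller fold (Ubqln1 -0.11, adjusted p 0.736; Ubqln2 -0.34, adjusted p 0.661). The Ubqln1 probe set used here is of a kind marked as possibly reading several transcripts, and leaving that kind out gave the same -0.11. Ubqln1 also lost its call without WT1 (0.091) or WT2 (0.13). None of the 9 genes bound to the proteasome was called. Zfand2a (-0.47 ± 0.14, adjusted p 0.0557) came closest, and passed in 2 alternative settings. Zfand2b (-0.29 ± 0.15, limma adjusted p 0.233) passed in 3. It stood at -0.62 with its second probe set and at -0.46 with probe sets averaged. Its probe set used here is of the same kind as that of Ubqln1, and leaving that kind out gave -0.62.

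Of 10 genes of the Nfe2l1 and Nfe2l2 pathway, 1 was called higher, Keap1. Mafg had both KO arrays above both WT arrays (log2 fold change 0.40) but missed the threshold (limma adjusted p 0.0691). KO lay above WT for 3 of the 10 and below for 1, against 29.8% and 32.9% of all genes tested. Keap1, the adaptor that marks Nfe2l2 for degradation, had 2132 and 2098 on the KO arrays and 1510.1 and 1661 on the WT arrays (log2 fold change 0.41 ± 0.12, SE; limma adjusted p 0.0429). Nfe2l1 itself had 1142 and 1209.6 on the KO arrays and 1199 and 1267 on the WT arrays (-0.07 ± 0.13; adjusted p 0.761), and Nfe2l2 stood at -0.09. The Keap1 call was lost when any single array was left out (adjusted p 0.0806 to 0.221). Of 9 genes of antigen processing, Erap1, an aminopeptidase that trims peptides, rose to 1418 and 1377 on the KO arrays, against 782 and 879 on the WT arrays (0.74 ± 0.13; adjusted p 0.00672). Tap1, a chain of the peptide transporter, fell to 5961 and 5419 on the KO arrays, against 7638 and 9419.9 on the WT arrays (-0.58 ± 0.12; adjusted p 0.0134), and lost its call without WT2 (0.104). With the probe sets of Tap1 averaged the log2 fold change was only -0.14 (adjusted p 0.714), and another probe set of Erap1 gave 0.18 (adjusted p 0.543). Without the intensity trend all 6 called genes of these lists missed the threshold, with adjusted p from 0.0749 (Erap1) to 0.175 (Keap1).

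**Figure D5:**
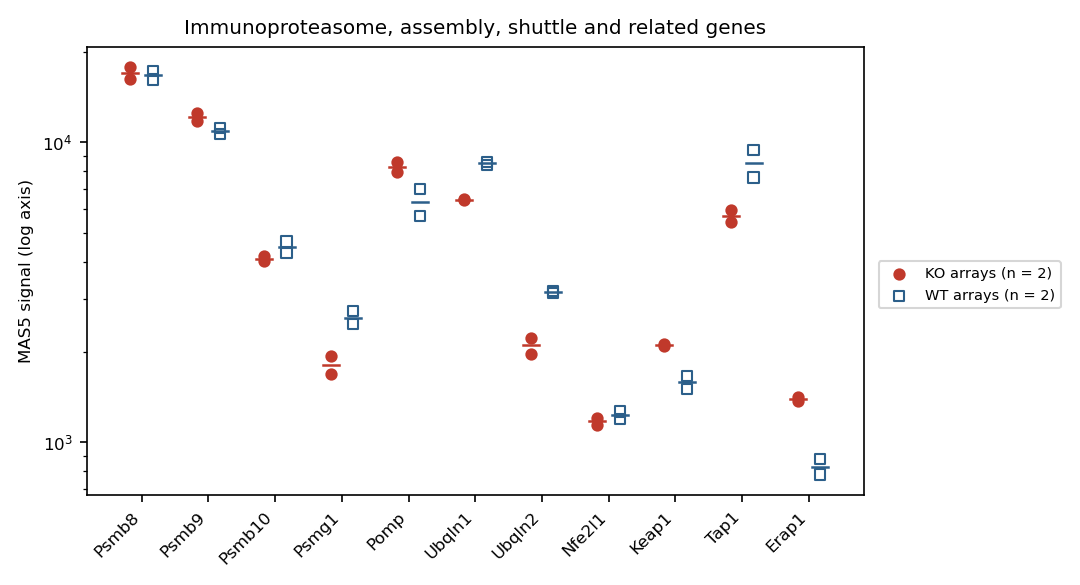
MAS5 signal (log axis) on each KO array (circles) and WT array (squares) for 11 genes of the companion lists, with group means as short lines. The KO arrays lie above the WT arrays for Erap1 and Keap1 and below them for Psmg1, Ubqln1, Ubqln2 and Tap1, the 6 called genes; levels of different genes are not comparable.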

How the data were processed

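Total RNA of 4 mouse arrays (2 KO, 2 WT) was measured. The deposited values are signal intensity per probe set, made by the authors with MAS5 per the submitters' processing notes; the table sets every array to a trimmed mean of 500.003 to 500.004 and the array medians were 56.5 to 62.6. With 2 arrays a group, precision is limited by their number. Of 45101 probe sets, 64 controls and the 40% with the lowest mean were left out, and log2(intensity + 16) was fitted with limma 3.58.1 in R 4.3.3 (lmFit and eBayes with an intensity trend, two-sided, Benjamini-Hochberg adjusted over 27023 probe sets at 0.05; 2 residual and 6.41 prior degrees of freedom). The fit was tested on simulated data. Symbols come from GEO's platform annotation: 34945 probe sets name 1 gene, 932 several and 9160 none; the 42 gene IDs matched RefSeq. All member genes may be named. Values per array are given for called genes, catalytic subunits, activators, the inhibitor, chaperones, symbols that are no subunit, restricted genes and the extremes of each class; Psmd14, Psmb1, Psmd2 and Psma2 were added after their values were seen. In the companion lists, called genes, the immunoproteasome and some genes not called are named. Not every gene with a small p is named there. The members and lists were chosen with earlier results of these data known. Alternatives covered the pseudocount, filter, scaling, trend, replicate block, choice of probe set and each array left out.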

Additional observations from a re-analysis of the deposited data

How the results depend on the processing

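Across 15 alternatives no proteasome gene was called lower in KO arrays, except with the probe set ranked second (1, Psmd7, the dim one with KO signals near the floor). Called higher were 1 with the 60% filter (Psma4, adjusted p 0.0492) and 0 to 2 when each array was left out, the highest without KO2 (Psma4 0.0317, Psma2 0.0396). The replicate numbers pair no samples by the labels, and the deviations of same-numbered arrays correlated at 0.010; with the replicate block 1 gene was called higher (Psma4, 0.0496) and 5385 probe sets in all. The 4608 probe sets called over the whole table became 1183 without the intensity trend, 2123 with probe sets averaged per gene, where fewer features are tested, and 2786 to 4389 when each array was left out. The core median of 0.12 was -0.022 with the second probe set, 0.0058 with probe sets averaged, 0.055 as a mean over genes (chosen after seeing the data) and 0.016 to 0.11 when each array was left out. The regulatory median of 0.02 was 0.061 with median centring, 0.089 with the second probe set and -0.0068 to 0.086 when each array was left out. Their difference of 0.10 was -0.11, 0.0066 and 0.0053 with the second probe set, averaged probe sets and means, and -0.0019 to 0.079 when each array was left out. The cause of these shifts was not tested. Of the 40 genes, 21 kept their sign under every alternative, and 3 were called under any. Psmg1, Ubqln1, Ubqln2, Keap1, Tap1 and Erap1 each lost their call under some alternatives. Dim probe sets limit what can be read of Psma8, of Psmb11 and of the setting with the probe set ranked second.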
